A study of Mus musculus with 2 samples.

Results

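Il7r lymphoid cells were examined in 2 single-cell RNA libraries of LSK cells (lineage-negative, SCA1-positive, cKIT-positive progenitors) from mouse fetal liver at E14.5. A cell was a member when it held at least 1 UMI of Il7r and at least 1 UMI summed over Ebf1, Rag1, Rag2, Dntt, Ccr9 and Trbc2, with at most 1 UMI of Klf1 and at most 4 of Elane. A UMI marks an original RNA molecule. This rule chose 250 of 7875 cells that passed a filter of 1000 or more genes detected and no more than 20% of UMIs from mitochondrial genes, 129 in the WT library and 121 in the KO library. The members were thus picked on measured counts, and the levels of these genes in them are a description. Embryos of the CD1 strain came from matings of mice heterozygous for the Nfkbia tm1Bal allele, a null allele of the gene for IκBα. The WT library pooled cells of 2 wild-type embryos and the KO library pooled cells of 3 homozygous knockout embryos. The deletion is carried by every cell of the KO embryos, so that lymphoid cells and the liver around them both lack IκBα. The titles of the libraries name LT-HSCs, whereas the cell type entry and the protocol name LSK cells.

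Il7r encodes the alpha chain of the receptor for interleukin 7, a cytokine that lymphoid progenitors need to survive and divide. Lymphoid progenitors of the fetal liver either turn on Ebf1, the transcription factor that opens the B cell programme, or leave for the thymus, to which the chemokine receptor CCR9 helps to guide them, and others give rise to innate lymphoid cells. Rag1 and Rag2 encode the recombinase that cuts antigen receptor genes, Dntt the polymerase that adds bases at the joints, and Trbc2 a constant segment of the T cell receptor beta locus. IκBα holds NF-κB, a family of inducible transcription factors, in the cytoplasm.

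Nfkbia, the targeted gene, had 1478 UMIs in all WT cells and 7 in all KO cells. Among the members it had 86 UMIs in 54 of 129 WT cells and 0 UMIs in 121 KO cells. The WT library held 109122324 UMIs and the KO library 100029143 UMIs, and a member had a median of 29723 UMIs in WT and of 19193 UMIs in KO. Scrublet marked 120 WT and 231 KO cells as doublets, of which 2 and 1 were members, and they were kept. The libraries shared 7 cell barcodes, none of which belonged to a member. In the KO library 17 members held Y-linked UMIs without Xist and 98 held Xist without Y-linked UMIs, against 0 and 124 in WT, so that sex and genotype partly overlapped. With 1 library per genotype there was no replicate and no test. The 95% intervals given throughout describe counting error and take no account of variation from embryo to embryo or of library preparation.

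The defining markers were only partly present. Trbc2 was detected in 90.7% of the WT members and 90.1% of the KO members, with a lowest, median and highest count per cell of 0, 10 and 53 UMIs in WT and of 0, 7 and 58 UMIs in KO. Ebf1 was found in 42.6% and 47.1% of them, with a median of 0 and a highest count of 39 UMIs in WT and 32 UMIs in KO. Ccr9 was found in 34.9% and 38.8%. Rag1 or Rag2 was found in 58 WT and 52 KO members. Dntt had 0 UMIs in both libraries, which allows a WT level of at most 0.671 CPM and a KO level of at most 1.2 CPM (3 UMIs of the total). CPM stands for UMIs of a gene per 1000000 UMIs of the summed cells. Il7r itself ran from 1 to 20 UMIs per WT cell and from 1 to 11 UMIs per KO cell, with a median of 2 in each, and 48 WT and 47 KO members held a lone Il7r UMI. Trbc2 alone of the 6 genes brought in 32 cells in each library.

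Few members held Igll1, and none held Bcl11b. Flt3, a receptor of multipotent and early lymphoid progenitors, was detected in 110 of 129 WT and 100 of 121 KO members. Kit, the receptor for stem cell factor, was detected in 101 and 76 members. Mpo, a granule enzyme of neutrophil and monocyte progenitors, was detected in 112 and 89 members. Mpo and Ebf1 were found together in 45 WT and 40 KO cells. Igll1, a part of the early B cell receptor, was found in 6 cells of each library. The T cell commitment gene Bcl11b and the genes Cd3e and Il2ra had 0 UMIs in the members of either library. The members are therefore called Il7r lymphoid cells here and not committed cells.

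Cells on either side of the rule were compared once, as a description. The cells just inside, with 1 UMI of Il7r and 1 UMI over the 6 genes, numbered 5 in WT and 6 in KO. Just outside, cells with Il7r but none of the 6 genes numbered 32 and 27, and cells with at least 1 of the 6 genes but without Il7r numbered 390 and 358. Cd27, a TNF receptor family member of lymphoid progenitors, was at 78.9 CPM in WT and 146 in KO in the cells just inside, at 39.6 and 54.1 in the cells without the 6 genes and at 68.3 and 83.4 in the cells without Il7r. Lsp1, an actin-binding protein of leukocytes, went the other way between the first pair of groups, at 197 and 376 just inside against 418 and 418 without the 6 genes, and so did Cd79b, at 39.4 and 27.9 against 51.9 and 62.3. Notch1 was at 39.4 and 97.6 against 40.6 and 44.3. The stem cell gene Hlf was at 47.3 and 34.9 just inside, from 6 and 5 UMIs, at 11.3 and 11.5 without the 6 genes and at 93.2 and 77.2 without Il7r. Each value just inside rests on few cells.

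The share of Il7r lymphoid cells in the LSK population was compared at equal depth, since a deeper cell passes a rule of lone UMIs more easily. After each cell was thinned at random to 8000 UMIs, 65 of 3343 WT cells (1.94%, 95% Clopper-Pearson interval 1.5 to 2.47%) and 76 of 4091 KO cells (1.86%, 1.47 to 2.32%) were members. The difference, KO minus WT, was -0.0866 percentage points (-0.743 to 0.552), so that none was detectable at this depth. As deposited, the shares were 3.73% and 2.74%, a difference of -0.991 points whose interval (-1.82 to -0.189) did not span 0, at the unequal depths given above. Thinning left out 115 WT and 326 KO cells that were too shallow. The Klf1 limit took out 19 WT and 21 KO cells and the Elane limit none.

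The background of the rule was measured in erythroid cells, which should lack these genes. Among cells with at least 5 UMIs of Klf1, a transcription factor of red cell precursors, 0.897% in WT and 0.975% in KO held both Il7r and 1 of the 6 genes, at a median of 37598 and 26725 UMIs per cell. Among cells within both upper limits the shares were 8.08% and 6.34%, at medians of 21310 and 14920 UMIs.

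Within the thinned members, cells with Ebf1 and without Ccr9 (Ebf1-only cells) made up 32.3% in WT and 30.3% in KO, a difference of -2.04 points (-18.3 to 14). Cells with Ccr9 and without Ebf1 (Ccr9-only cells) made up 16.9% and 17.1%, a difference of 0.182 points (-13.5 to 13.4). Cells with both genes made up 6.15% and 15.8%, a difference of 9.64 points (-1.88 to 20.7), and cells with neither made up 44.6% and 36.8%. Every one of these 4 differences had an interval that spanned 0, and the intervals are wide. As deposited, 33 WT and 30 KO members were Ebf1-only, 23 and 20 were Ccr9-only, 22 and 27 held both, and 51 and 44 held neither.

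**Figure D1:**
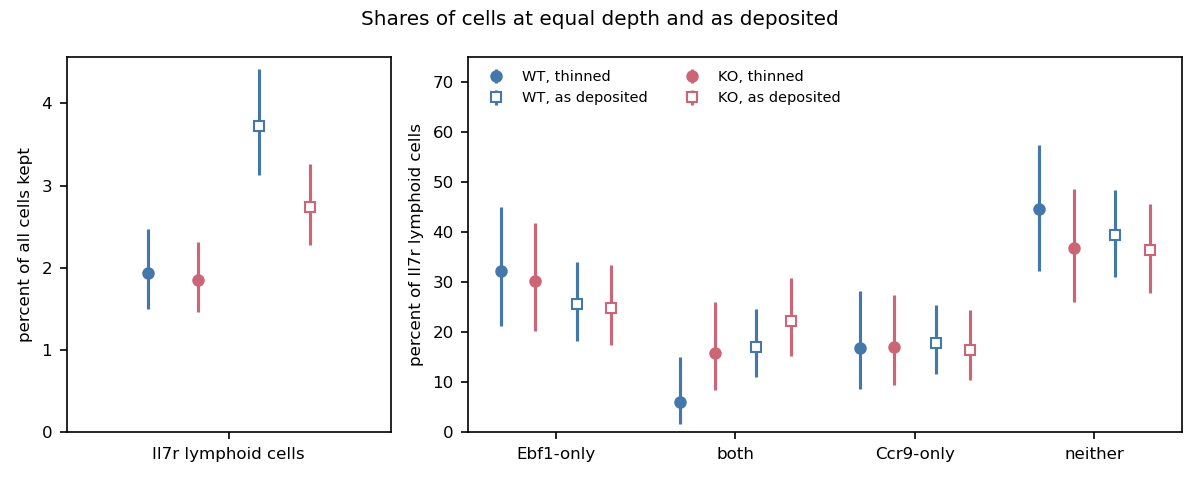
Percent of cells in the WT and KO libraries that were Il7r lymphoid cells (left) and percent of these cells in each of 4 subsets (right). Circles are cells thinned to 8000 UMIs, squares are cells as deposited, and lines are 95% Clopper-Pearson intervals for counting error. The thinned circles of WT and KO lie at 1.94% and 1.86%, whereas the squares lie at 3.73% and 2.74%.

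To ask which genes set the Ebf1 and Ccr9 cells apart, UMIs were summed over the Ebf1-only and over the Ccr9-only cells of each library and given as CPM. The genes of the surrogate light chain and of the B cell receptor complex were higher in Ebf1-only cells in both libraries, and the innate lymphoid regulators Nfil3, Id2 and Tox were lower. Of 5523 genes with at least 20 UMIs in each library, 34 (0.616%) were at least 2-fold higher in Ebf1-only cells in both libraries and 27 (0.489%) were at least 2-fold lower. The genes of the rule were left out of these counts. Of 10 measured B lineage genes, 6 were called higher and none lower, with a median log2 ratio of 1.85 in WT and 2.39 in KO, against a median of about 0 over all genes (-0.01 in KO). Cd79a, Igll1, Vpreb1, Vpreb2 and Vpreb3 had 0 UMIs in the WT Ccr9-only cells. They reached the minimum through the Ebf1-only cells alone and could only be called higher, so the count and median of this list are a description. The median depth of the cells was 29535 and 29448 UMIs in WT and 20352 and 17746 UMIs in KO.

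The bases just upstream of the B cell genes are shown because these genes moved together and because Ebf1, which chose the cells, encodes a factor that acts on promoters. In the RefSeq table of GRCm38.p6, 7 of 8 genes looked for were found. The letters CAGCTG and CAGGTG were searched on both strands in the 250 bases before each start site. These are sites of the E-box type, which E2A proteins, partners of Ebf1 in early B cells, can bind. Capitals mark the hexamers, CACCTG being CAGGTG on the other strand. Each sequence runs 5′ to 3′ on the gene's strand and ends at the RefSeq start site, which for Cd79a, Vpreb1, Vpreb3 and Nfil3 lies inside the GENCODE span of the gene.
Cd79a (chr7:24897247-24897496, plus strand): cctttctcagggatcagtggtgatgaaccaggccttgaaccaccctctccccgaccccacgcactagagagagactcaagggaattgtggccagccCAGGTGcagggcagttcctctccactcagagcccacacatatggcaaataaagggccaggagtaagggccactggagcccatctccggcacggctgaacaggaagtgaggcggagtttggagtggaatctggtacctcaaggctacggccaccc
Igll1 (chr16:16863986-16864235, minus strand): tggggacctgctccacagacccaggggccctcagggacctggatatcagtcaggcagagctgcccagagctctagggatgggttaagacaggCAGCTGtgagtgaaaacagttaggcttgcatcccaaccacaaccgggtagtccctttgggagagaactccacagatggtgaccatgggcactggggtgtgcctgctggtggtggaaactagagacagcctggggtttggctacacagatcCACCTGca
Vpreb1 (chr16:16869256-16869505, minus strand): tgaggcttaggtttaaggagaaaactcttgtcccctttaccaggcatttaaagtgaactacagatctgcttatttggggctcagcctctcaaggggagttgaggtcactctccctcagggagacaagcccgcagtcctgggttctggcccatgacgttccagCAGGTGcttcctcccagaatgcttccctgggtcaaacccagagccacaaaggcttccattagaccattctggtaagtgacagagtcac
Vpreb3 (chr10:75948050-75948299, plus strand): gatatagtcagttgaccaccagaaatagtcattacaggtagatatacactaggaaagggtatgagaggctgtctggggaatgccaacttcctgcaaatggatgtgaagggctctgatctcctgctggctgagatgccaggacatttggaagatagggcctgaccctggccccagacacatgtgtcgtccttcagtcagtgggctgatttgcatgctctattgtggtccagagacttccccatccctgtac
Nfil3 (chr13:52981040-52981289, minus strand): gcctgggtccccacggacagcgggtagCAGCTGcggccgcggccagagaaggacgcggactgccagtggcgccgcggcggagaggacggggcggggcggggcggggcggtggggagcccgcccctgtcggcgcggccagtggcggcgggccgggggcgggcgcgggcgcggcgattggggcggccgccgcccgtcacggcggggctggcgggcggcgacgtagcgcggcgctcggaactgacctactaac

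Cd79a held 1 hexamer, starting 154 bases before the start site, Vpreb1 held 1 at 88 bases and Igll1 held 2 at 158 and 8 bases. Vpreb3 held none, and Nfil3, from the other arm, held 1 at 223 bases. Vpreb2, a near copy of Vpreb1, held 2, and the 2 upstream windows shared an unbroken run of 91 bases that contains CAGGTG. Across all 32851 promoters 27.7% held either hexamer, and 21.7% of those of the measured genes did. Of 33 promoters of genes higher in Ebf1-only cells 12 (36.4%) held one, and of 24 promoters of genes lower there 4 (16.7%) did. The promoters came from 26 of the 34 genes called higher and 20 of the 27 called lower, and 11 and 4 genes held a hexamer. Some genes had more than 1 promoter, and the other called genes had no match in the promoter table. The letters CCCNNGGG, a core of the sites Ebf1 itself binds, were in 11.8% of all promoters, in 14.7% of those of the measured genes, in 15.2% of those of the higher genes and in 25.0% of those of the lower genes. A match is a description of letters and not a bound site.

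Cd79a (ENSMUSG00000003379, chromosome 7, 24897381 to 24902197), a signalling chain of the B cell receptor, had 116 UMIs in 12 of 33 Ebf1-only cells and 0 in 23 Ccr9-only cells of WT. In KO it had 121 UMIs in 12 of 30 and 2 UMIs in 1 of 20 cells. Its level was 96.5 CPM in WT and 165 in KO Ebf1-only cells, and the log2 ratio was at least 4.44 in WT and 4.96 (3.07 to 8.02) in KO. Counts per Ebf1-only cell ran from 0 to 27 with a median of 0, so that most of these cells lacked it. Its partner Cd79b was less exclusive, at 89.8 against 40.1 CPM in WT and 121 against 42.4 in KO, and was found in 13 WT and 12 KO Ccr9-only cells.

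The surrogate light chain, which stands in for the light chain on early B cells, showed the same split. Igll1, its lambda5 part, had 86 UMIs in WT and 84 in KO Ebf1-only cells, from 6 cells in each library, and 0 in Ccr9-only cells. Vpreb1, the other part, had 82 and 84 UMIs in 6 cells of each library and 0 in Ccr9-only cells. Igll1 and Vpreb1 lie next to each other on chromosome 16, with a gap of 4.42 kb. Vpreb2 had 31 UMIs in 8 WT and 56 in 9 KO Ebf1-only cells and 0 in Ccr9-only cells, and reads of the near copies Vpreb1 and Vpreb2 may be split unevenly between them. Vpreb3, a related protein of the pre-B cell, had 78 and 84 UMIs against 0 and 1. It lies 5.31 kb from Chchd10, a mitochondrial protein gene that was also higher, with log2 ratios of 2.69 (1.93 to 3.56) in WT and 2.38 (1.61 to 3.25) in KO.

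The 12 cells with Igll1 had a common make-up. Their Cd79a counts ran from 4 to 27 UMIs in WT and from 15 to 22 UMIs in KO. Each held Ebf1, at 3 to 39 UMIs in WT and 9 to 32 UMIs in KO, and all 12 lacked Ccr9. Pax5, which locks in the B cell fate, was found in every one of them at 1 to 4 UMIs, and Ighm, the heavy chain locus, at 14 to 51 UMIs. Along the Ebf1 count Igll1 appeared mainly in the highest class, whereas Cd79a was also found in the middle class. Of the members with at least 10 Ebf1 UMIs, 7 of 12 in WT and 7 of 11 in KO held Cd79a, and 5 in each library held Igll1. Of the members with 3 to 9 Ebf1 UMIs, 5 of 24 in WT and 10 of 24 in KO held Cd79a. In that class 1 cell in each library held Igll1, and 1 WT and 6 KO cells held Pax5. Of the members with 1 to 2 Ebf1 UMIs, 2 of 19 in WT and 1 of 22 in KO held Cd79a, and none held Igll1. Mpo was found in 15 and 17 of these low-Ebf1 cells and in 9 and 7 of the high-Ebf1 cells. Median depth was near equal, from 28975 to 31384 UMIs over the WT classes and from 18561.5 to 19650 over the KO classes.

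Pax5 had 13 UMIs in 8 WT and 23 UMIs in 10 KO Ebf1-only cells and 0 in Ccr9-only cells. It fell short of the minimum of 20 UMIs for a call in WT. Ighm was measured well and differed less, at 372 against 227 CPM in WT (log2 0.71, 0.44 to 0.99) and 444 against 239 in KO (0.89, 0.55 to 1.25). Ighm transcripts were thus found in both arms, in 33 of 33 and 21 of 23 cells of WT. Blnk, an adaptor of B cell receptor signalling, had 14 and 16 UMIs against 0 and 2.

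**Figure D2:**
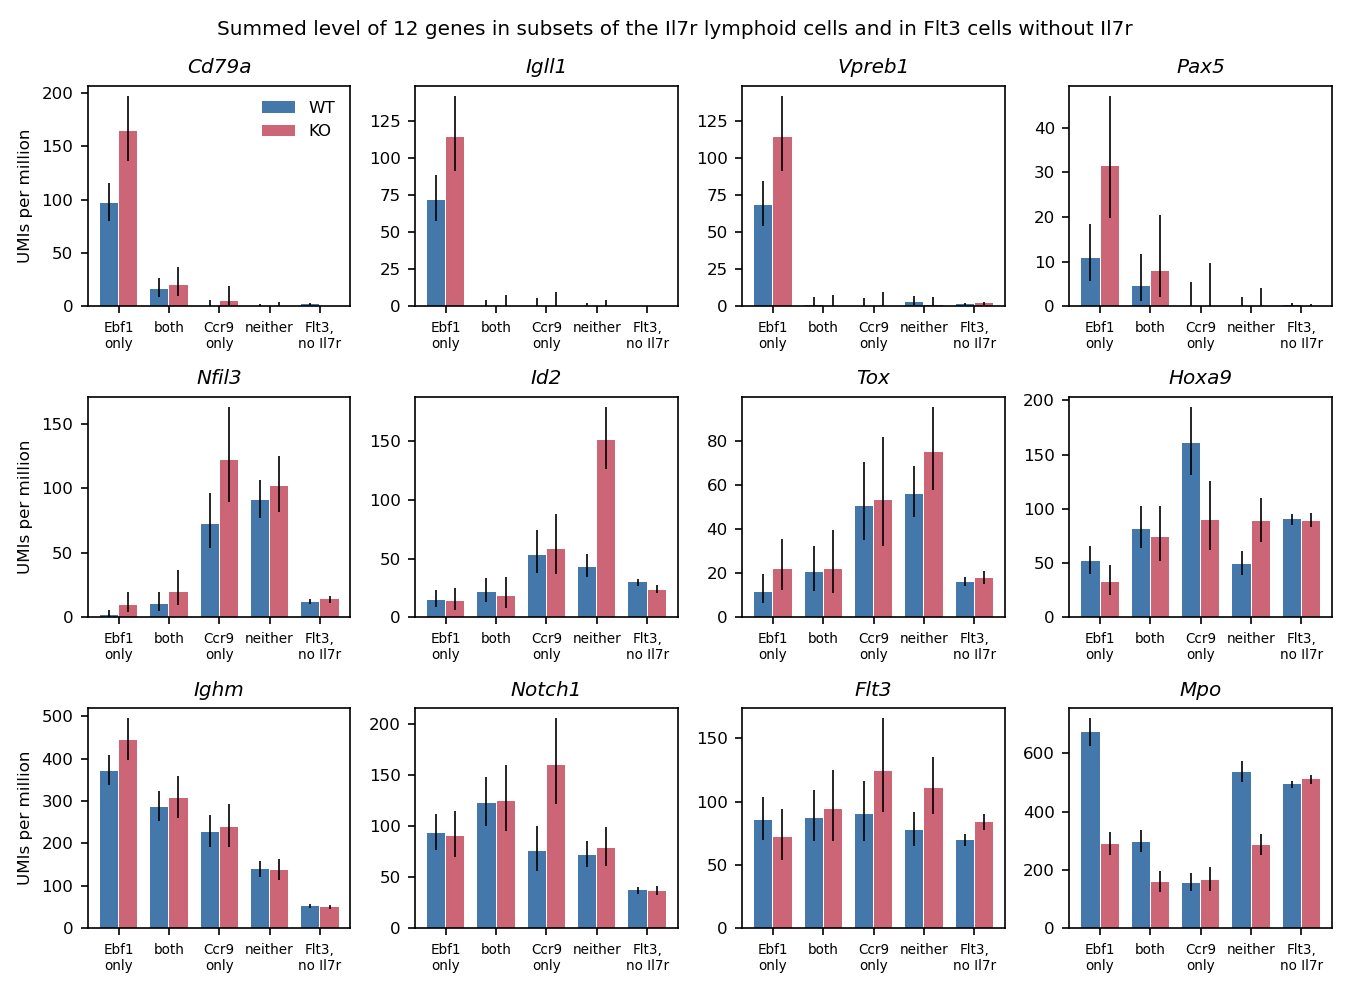
CPM, summed over cells, of 12 genes in the 4 subsets of Il7r lymphoid cells and in cells with Flt3 but without Il7r, for the WT and KO libraries. Bars are summed levels and lines are 95% Poisson intervals for counting error. Cd79a reaches 96.5 in WT and 165 in KO Ebf1-only cells and is at 0 and 5.31 in Ccr9-only cells, whereas Nfil3 runs the other way, at 1.66 and 9.53 against 72.7 and 122.

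Other genes called higher in Ebf1-only cells were not B cell receptor parts. Clec12a, an inhibitory lectin receptor, had 42 against 3 UMIs in WT and 45 against 2 in KO, with log2 ratios of 2.97 (1.33 to 5.31) and 3.53 (1.59 to 6.62). Cd69, an early activation antigen that holds lymphocytes in tissue, had 66 against 4 UMIs and 45 against 5. Myl4, an embryonic myosin light chain, had 68 against 3 and 55 against 4. Cecr2, a chromatin remodelling factor, had 53 against 3 and 55 against 4. These genes were more widely spread than Cd79a, for 20 of 33 Ebf1-only cells in WT and 15 of 30 in KO held Myl4. Myb, a transcription factor of immature blood cells, was the only early lymphoid regulator called of 20 measured, at log2 1.12 (0.67 to 1.58) and 1.39 (0.81 to 2.02).

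Neutrophil genes were also present in the Ebf1 arm. Prtn3, a neutrophil protease, was called higher in Ebf1-only cells, at 253 against 47.5 CPM in WT and 191 against 79.6 in KO. Mpo was at 671 against 156 CPM in WT (log2 2.11, 1.81 to 2.41) and at 287 against 165 in KO (0.80, 0.39 to 1.24), and was not called. The KO ratio of Mpo turned to -1.05 with cells thinned to 8000 UMIs. In WT 1 cell held 31.3% of the Mpo UMIs of Ebf1-only cells. The median and highest Mpo counts per Ebf1-only cell were 13 and 252 UMIs in WT and 4 and 47 UMIs in KO.

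On the Ccr9 side, Nfil3 (ENSMUSG00000056749, chromosome 13, 52967209 to 52981073), a transcription factor that innate lymphoid cells require, had 49 UMIs in 14 of 23 Ccr9-only cells and 2 UMIs in 2 of 33 Ebf1-only cells in WT. In KO it had 46 UMIs in 12 of 20 and 7 UMIs in 2 of 30 cells. The log2 ratio was -5.45 (-8.54 to -3.52) in WT and -3.68 (-5.07 to -2.52) in KO. Nfil3 ranked first of the lower genes when each gene was taken by the smaller of its ratios in the libraries. Cells with both genes, at 10.2 and 20 CPM, were nearer to the Ebf1-only cells, and cells with neither, at 91.1 and 102, were nearer to the Ccr9-only cells. Id2, an inhibitor of E proteins that favours innate lymphoid over B cell fate, was at 53.4 against 15.0 CPM in WT (log2 -1.83, -2.74 to -0.98) and 58.4 against 13.6 in KO (-2.10, -3.34 to -0.96). Tox, a nuclear factor of T and innate lymphoid development, was at 50.5 against 11.7 in WT and 53.1 against 21.8 in KO. Thus 3 of 4 measured innate lymphoid genes were called lower in Ebf1-only cells and none higher. Nfil3 reached the minimum through the Ccr9-only cells, where it is high, so this count is a description.

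Zfp503, a zinc finger gene, had 37 UMIs in 12 Ccr9-only and 6 UMIs in 2 Ebf1-only cells in WT, and 18 UMIs in 7 and 4 UMIs in 2 cells in KO, with log2 ratios of -3.46 (-5.00 to -2.20) and -3.13 (-5.16 to -1.53). Hoxa9, a homeobox gene of stem and early progenitor cells, was at 160 against 51.6 CPM in WT and 90.2 against 32.7 in KO, and was the only stem cell gene called of 6 measured. Itgal, the alpha chain of the LFA-1 integrin, was called lower in Ebf1-only cells, at log2 -1.09 and -1.96. Slc29a3, Cd9, Net1 and Crot were also among the 10 genes ranked lowest, Slc29a3 at -1.54 in WT and -1.60 in KO. Cd7, a surface protein of T and NK precursors, fell under the minimum but had 9 and 12 UMIs in Ccr9-only and 2 and 1 UMIs in Ebf1-only cells. Lztfl1, a ciliary trafficking gene, had log2 ratios of -2.35 (-3.02 to -1.73) and -1.35 (-2.15 to -0.57). It lies on the minus strand at chromosome 9, 123694416 to 123717697, inside the annotated span of Ccr9 on the plus strand (123678439 to 123784330), and Ccr9 chose these cells.

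T lineage genes did not split the arms in the same way in both libraries. None of 4 measured was called, with a median log2 ratio of 0.14 in WT and -1.01 in KO. Notch1, the receptor that drives T cell fate, was at 93.2 against 75.7 CPM in WT and 89.8 against 159 in KO. Trbc1 was at 15.8 against 25.2 in WT and 9.53 against 66.3 in KO. Trbc1 and Trbc2 are near-identical copies, and the counting could split their reads. Apoe, a lipoprotein made by macrophages, was called lower in Ebf1-only cells but turned to log2 1.72 in WT and 1.96 in KO without the members that held C1q UMIs, which mark macrophages. It turned to 1.07 in WT with cells thinned to 8000 UMIs, and to 2.72 and 1.88 with at least 2 Il7r UMIs asked for. No other gene among the 20 named by size reversed without these cells.

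**Figure D3:**
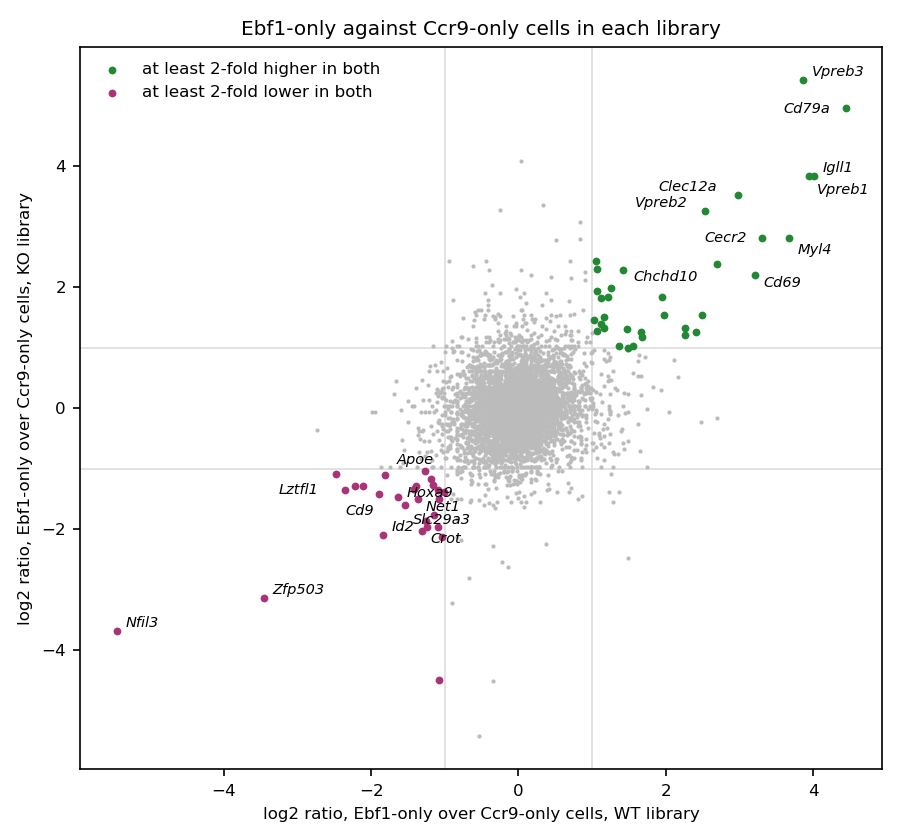
Each point is a gene, with the log2 ratio of summed CPM in Ebf1-only over Ccr9-only cells in the WT library on the horizontal axis and in the KO library on the vertical axis. Coloured points passed 2-fold the same way in both libraries, 34 higher and 27 lower of 5523 genes, and the named genes are those with the largest ratios. Ratios to 0 use a floor of 3 UMIs, so that Cd79a in WT and Igll1 and Vpreb1 in both are lower bounds.

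Cells with neither Ebf1 nor Ccr9 formed the largest subset as deposited. Nfil3 was at 91.1 CPM in WT and 102 in KO, nearer to the Ccr9-only than to the Ebf1-only cells, and Mpo was at 536 and 287. The early T and innate factor Tcf7 was found mostly here, with 12 of 15 WT and 38 of 43 KO UMIs. Within this subset 3 of 51 WT and 8 of 44 KO cells held it, with a highest count of 6 and 8 UMIs. Gata3, a factor of T and type 2 innate cells, had 13 and 14 UMIs in 6 and 7 of these cells. Bcl11b and Cd3e were at 0 throughout, and Ptcra, a pre-T cell receptor chain, was found in 1 WT and 3 KO members.

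**Figure D4:**
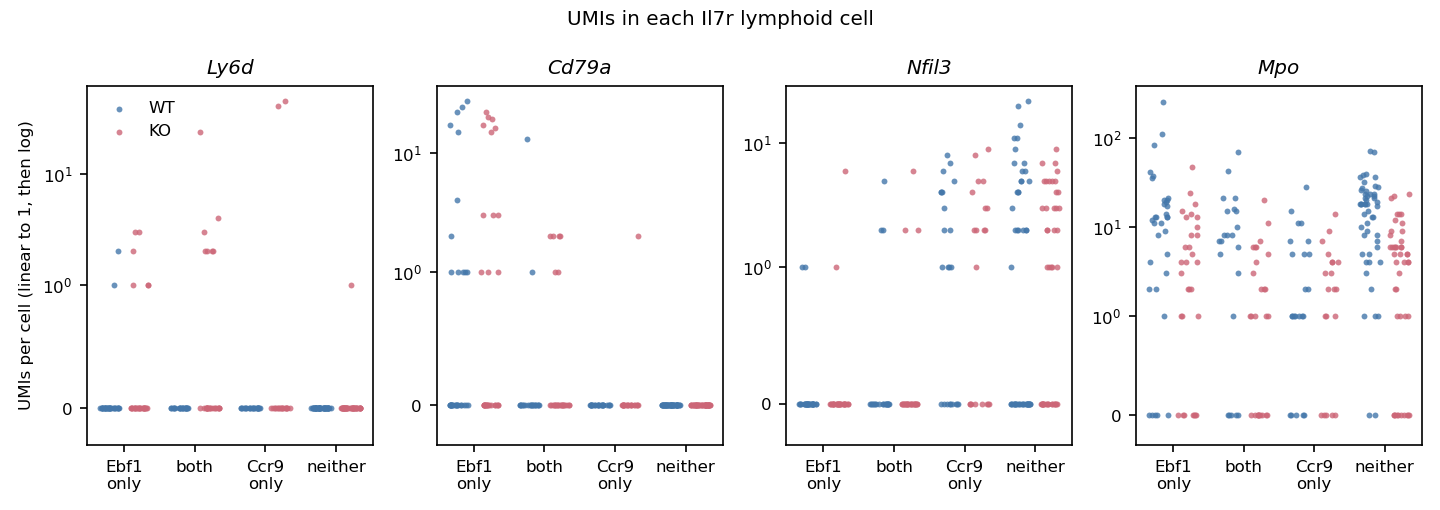
UMIs of Ly6d, Cd79a, Nfil3 and Mpo in each of the 250 Il7r lymphoid cells, by subset and library, on an axis that is linear up to 1 and logarithmic above. Each point is a cell, moved sideways at random. Cd79a reaches 27 UMIs in WT and 22 in KO Ebf1-only cells, Nfil3 counts above 0 lie mostly in Ccr9-only cells and cells with neither gene, and 3 KO cells hold 45, 41 and 24 UMIs of Ly6d.

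The members were next compared with cells that held at least 1 UMI of Flt3, no Il7r and met the same Klf1 and Elane limits (557 in WT and 461 in KO, with median depths of 22801 and 16812 UMIs). Genes of the B and T lineages were among those higher in the members, and genes of stem cells were among those lower. Of 9046 genes with at least 50 UMIs in each library, 60 (0.663%) were at least 2-fold higher in the members of both libraries and 128 (1.41%) were at least 2-fold lower. The 10 lowest by size were plasma protein and lipoprotein genes of hepatocytes. In the Flt3 cells 91.7% of WT and 89.3% of KO UMIs of 10 hepatocyte genes lay in 2 cells of each library. Without these cells 59 genes (0.656%) were higher and 88 (0.979%) lower, and some of the hepatocyte genes turned higher.

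Ighm was at 244 CPM in WT and 277 in KO members against 52.3 and 49.8 in Flt3 cells, a log2 ratio of 2.22 (2.09 to 2.36) and 2.47 (2.30 to 2.65). Of the members 114 of 129 in WT and 110 of 121 in KO held it, with a median of 7 and 5 UMIs per cell. Igll1, Vpreb3, Cd79a and Vpreb1 had the largest ratios, and in the Flt3 cells they had 1, 10, 25 and 18 UMIs in WT and 0, 0, 1 and 16 UMIs in KO. Of 11 B lineage genes measured 5 were called higher and none lower. Igll1, Vpreb3, Cd79a and Vpreb1 reached the minimum of 50 UMIs through the members, where they are high, so this count is a description. Mzb1, a chaperone of immunoglobulin assembly, was at 129 against 19.2 CPM in WT and 194 against 21.1 in KO, and was found in 91 WT and 85 KO members. Cox6a2, a subunit of respiratory complex IV, was at 56.8 against 6.29 in WT and 98.7 against 7.06 in KO. Cmah, which modifies sialic acid, was at 22.6 against 2.41 and 23.3 against 2.27. These genes were found in more of the members than Igll1 or Cd79a was. Tmem108, Myl4 and Cdh17 were the other genes named by size, Cdh17 at log2 2.53 in WT and 2.52 in KO.

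Of 6 measured T lineage genes 4 were called higher, namely Lck, Trbc1, Hes1 and Notch1. Trbc1 is a near-identical copy of Trbc2, a gene of the rule, and the counting could split their reads. Its call, and the count that holds it, are therefore a description. Notch1 was at 88.1 against 37.1 CPM in WT (log2 1.25, 1.06 to 1.44) and 103 against 36.6 in KO (1.49, 1.25 to 1.74). Its target Hes1 was at 10.1 against 2.34 and 20.9 against 2.75. Lck, a kinase of T cell receptor signalling, was at 13.2 against 5.70 and 20.5 against 5.98. Tox and Nfil3 were the innate lymphoid genes called, Nfil3 at log2 2.01 (1.71 to 2.31) and 2.15 (1.79 to 2.50). Among 21 early lymphoid regulators, Ets1 and the chromatin organiser Satb1 were called higher, and Lmo2 and Ikzf2 lower, with a median log2 ratio over the list of 0.14 in WT and 0.19 in KO. Ets1 was at 28.4 against 7.24 in WT and 29.3 against 7.18 in KO.

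Of 11 measured stem cell genes 6 were called lower and none higher, with a median log2 ratio of -1.11 in WT and -1.33 in KO. Hlf, a transcription factor of stem cells, was at 36.9 against 127 CPM in WT and 17.6 against 101 in KO. Mecom, a regulator of stem cell maintenance, was at 5.14 against 28.3 and 3.61 against 27.4. Procr, the stem cell surface receptor EPCR, had 1 against 127 UMIs in WT and 3 against 51 in KO. Without the hepatocyte cells 5 of the 11 were called lower, and the lowest genes by size, chosen after their values were seen, were H2-Aa, Col4a2, Mecom, Chil5, Procr, Nkx2-3, Rab38, Gucy1a1, Wfdc2 and Slit2. H2-Aa, an MHC class II chain, had 4 against 82 UMIs in WT and 3 against 60 in KO. The MHC class II genes H2-Aa and H2-Ab1 were the dendritic cell genes called lower, and Cox6a2 the one called higher. H2-Ab1 turned to log2 1.55 in WT with cells thinned to 8000 UMIs. Of 15 measured cytokine receptors none was called higher, and Flt3, left out of the count, was at 83.7 against 69.8 and 98.3 against 84.0.

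The last comparison set KO against WT within the members. Some B and T lineage genes were higher in the KO members and neutrophil and monocyte genes were lower, and among the genes higher in KO the largest ratio was that of Ly6d. Of 8017 genes with at least 50 UMIs over both libraries, 225 (2.81%) were at least 1.5-fold higher in KO and 304 (3.79%) at least 1.5-fold lower. The median log2 ratio over all of them was 0.01. With cells thinned to 8000 UMIs, which left 65 WT and 76 KO members and 3031 genes over the minimum, 159 genes (5.25%) were called higher and 95 (3.13%) lower, and these held 21 of the 225 and 10 of the 304. Each ratio compares 2 libraries, which differ in depth and in the sex of the embryos as well as in genotype, and these cannot be told apart.

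Ly6d (ENSMUSG00000034634, chromosome 15, 74762056 to 74763620), a surface protein that marks progenitors turning to the B lineage, had 3 UMIs in 2 of 129 WT members and 137 UMIs in 16 of 121 KO members. The level was 0.671 against 55.0 CPM, a log2 ratio of 6.36 (4.78 to 8.65). The share of cells with Ly6d was 1.55% (0.188 to 5.49%) in WT and 13.2% (7.75 to 20.6%) in KO, a difference of 11.7 points (4.93 to 19.2). At equal depth it was 2 of 65 and 10 of 76 cells, a difference of 10.1 points (-0.0268 to 20.2). In KO 3 cells with 45, 41 and 24 UMIs held 110 of the 137 UMIs, and the other cells held 27. By subset, 86 KO UMIs lay in 2 Ccr9-only cells and 11 in 6 Ebf1-only cells. Of the 16 cells, 13 held Ebf1, 8 held Cd79a and 9 held Ccr9. Of the 3 highest cells 2 also held Siglech, a gene of plasmacytoid dendritic cells, and 2 of the 16 were male. Among female cells the ratio was 6.53 (4.95 to 8.83). Over all cells of the libraries Ly6d had 4 UMIs in WT and 139 in KO, so that nearly all of it lay in the members.

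Of 12 measured B lineage genes 6 were called higher in KO and none lower, with a median log2 ratio of 0.63. They were Ly6d, Cd79a, Igll1, Vpreb1, Vpreb2 and Vpreb3. Ly6d, with 3 UMIs in WT and 137 in KO, reached the minimum through the KO members and could only be called higher. The count and median of this list are therefore a description. Cd79a was at 29.1 CPM in WT and 53.4 in KO (log2 0.88, 0.52 to 1.23), from 130 and 133 UMIs. Igll1 was at 19.2 and 33.7 (0.81, 0.36 to 1.26), from 86 and 84 UMIs in 6 cells each. The UMI sums were thus near equal, while all UMIs of the KO members summed to 2493079 against 4470479 in WT. With cells thinned to one depth the ratios were 0.59 for Cd79a, 0.31 for Igll1, 0.43 for Vpreb1 and 0.44 for Vpreb3, and with no Klf1 or Elane limit they were 0.64, 0.20, 0.06 and 0.57. Ighm, in most members, was at 244 and 277 (0.18, 0.04 to 0.32).

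Of 7 measured T lineage genes 4 were called higher in KO and none lower. Tcf7 summed to 15 WT and 43 KO UMIs, a log2 ratio of 2.36 (1.49 to 3.32), and was found in 3.10% and 9.92% of members. Tcf7 reached the minimum mainly through the KO members, where it is high, so the count of this list is a description. Trbc1 was at 14.3 and 34.9 CPM (1.29, 0.80 to 1.77). Hes1 was at 10.1 and 20.9 (1.05, 0.45 to 1.66) and Lck at 13.2 and 20.5 (0.63, 0.06 to 1.2). Notch1, at 88.1 and 103, was not called. Id2 was at 32.9 and 69.8 CPM (1.09, 0.76 to 1.41), and in cells with neither Ebf1 nor Ccr9 it was at 43.2 in WT and 151 in KO. In Ebf1-only cells Id2 was at 15.0 and 13.6. In the Flt3 cells without Il7r its log2 ratio was -0.33 (-0.58 to -0.08). With Id2, the innate lymphoid genes Ltb and Tnfsf11, both ligands of the TNF family, were called higher and Lta lower of 6 measured. Lta had 49 UMIs in WT, 45 of them in 1 cell. Ltb was at 45.6 and 83.0, and turned to log2 -0.49 with cells thinned to one depth.

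All 6 measured neutrophil and monocyte genes were called lower in KO, with a median log2 ratio of -1.21. Fcgr3, with 156 UMIs in WT and 14 in KO, reached the minimum through the WT members and could only be called lower. The count and median of this list are therefore a description. With cells thinned to 8000 UMIs the log2 ratio was -1.19 for Mpo, -0.83 for Prtn3, -2.03 for Csf1r and -0.10 for Lyz2, and Fcgr3 turned to 2.10. Mpo summed to 2091 WT and 605 KO UMIs, or 468 and 243 CPM (log2 -0.95, -1.08 to -0.82). Detected in 86.8% and 73.6% of members, it had a median of 10 and 3 UMIs per cell and a highest count of 252 and 47. Prtn3 was at 225 and 146 (-0.63, -0.81 to -0.45). Csf1r, the receptor for macrophage colony-stimulating factor, was at 33.1 and 14.8 (-1.16, -1.72 to -0.63). In the Flt3 cells without Il7r Mpo was at 493 and 510, and why the members differ from these cells was not tested. The receptors Csf2rb, Csf3r and Il6ra were the cytokine receptors called lower of 16 measured, and Socs2, a feedback inhibitor of cytokine signals, was called higher. Csf2rb turned to log2 2.36 with cells thinned to 8000 UMIs.

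Macrophage genes moved with genotype and came from few cells. Of 8 measured, 6 were called lower in KO. Mrc1, with 117 UMIs in WT and 5 in KO, reached the minimum through the WT members and could only be called lower. This count is therefore a description. The 12 genes of the list summed to 1244 UMIs in WT and 230 in KO members, of which 5 cells held 86.2% and 90.4%. Lyve1, F13a1, Mrc1, Fcgr3, Pf4 and Lgals3, which are expressed by macrophages, were among the 8 lowest genes, with Anxa3 and Cpa3. Lyve1, a hyaluronan receptor, had 236 UMIs in 3.88% of WT members and 0 in KO. Without the 16 WT and 8 KO members that held C1q UMIs, the log2 ratio was -1.45 for F13a1, -2.14 for Fcgr3, -2.70 for Anxa3, -1.80 for Lgals3, -1.08 for Cpa3 and 0.86 for Pf4. Lyve1 and Mrc1 then fell under the minimum and gave no ratio. At 8000 UMIs per cell the direction turned for Fcgr3 (2.10), Pf4 (0.58), Cpa3 (1.51), C1qa (2.10) and C1qb (1.36). The lower level of Fcgr3, Pf4, Cpa3, C1qa and C1qb in KO was thus not seen among the thinned members. The rule was applied again to the thinned counts, which left 65 WT and 76 KO members, so the cells compared changed along with their depth. Without the members that held C1q UMIs, 229 of 7549 measured genes (3.03%) were called lower, against 304 of 8017 (3.79%) with them. Of the 229 genes, 160 were among the 304. The part of the members with C1q UMIs in the other differences was not tested.

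**Figure D5:**
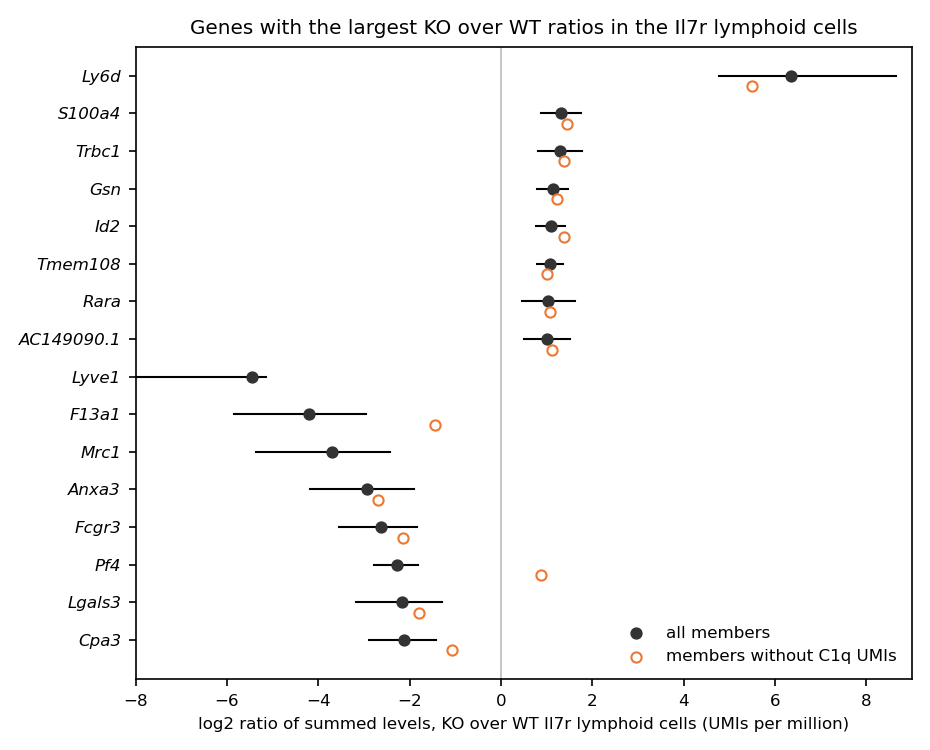
Log2 ratio of summed CPM, KO over WT, in the Il7r lymphoid cells for the 8 highest and 8 lowest genes with at least 100 UMIs. Filled points are all members with 95% exact intervals for counting error, and open points are members without C1q UMIs, absent where the gene then fell under the minimum. Ly6d stands at 6.36, Pf4 moves from -2.29 to 0.86 without the C1q cells, and Lyve1, with 0 UMIs in KO, is at a bound of -5.45 set by a floor of 3 UMIs, its interval running off the axis.

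Other genes named by size were also higher in KO. S100a4, a calcium-binding protein, was at 16.8 and 41.7 CPM (log2 1.31, 0.87 to 1.76), and turned to -0.12 with cells thinned to 8000 UMIs. In KO it had 39 UMIs in the 17 male cells and 64 UMIs in the 98 female cells, a log2 ratio of male over female of 1.74 (1.13 to 2.34), and in female cells alone the ratio was 0.96 (0.44 to 1.46). Gsn, an actin-severing protein, was at 29.3 and 64.2 (1.13, 0.79 to 1.47). Tmem108, a membrane protein that was also higher in members than in Flt3 cells, was at 44.7 and 94.3 (1.08, 0.80 to 1.35) and was found in 48.1% and 66.1% of members. Rara, the retinoic acid receptor alpha, was at 11.0 and 22.5 (1.04, 0.46 to 1.62), and in the Flt3 cells its ratio was 0.07 (-0.38 to 0.52). Of 5 measured retinoic acid genes Rara alone was called higher.

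Genes of the NF-κB pathway were read against the 2.81% of all genes called higher and the 3.79% called lower. Of 8 measured inhibitors and subunits 1 was called higher, Chuk, the IKK alpha kinase, at log2 0.69 with an interval that reached 0, and the median was 0.08. Nfkb1 was at 41.2 and 40.9 CPM and Rel at 24.2 and 26.1. Relb had 8 UMIs in WT and 18 in KO, under the minimum for a call. Of 6 measured targets Ltb was called higher and Icam1 lower, at 12.5 and 8.02, with a median of -0.24. None of 20 early lymphoid regulators was called in either direction, with a median of 0.02. Ikzf1, which primes lymphoid fate, was at 123 and 145 and Tcf3, which encodes E2A, at 103 and 108.

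Genes of other cell types differed as well. Haemoglobin genes, found in nearly every cell, were called higher in KO, with Hbb-bs at 268 and 508 CPM and Hba-a1 at 101 and 182, but turned to log2 -0.32 and -0.87 with cells thinned to 8000 UMIs, and 4 of 6 measured erythroid genes were higher and 1 was lower. The hepatocyte genes Alb, Afp and Apoa2 were higher, 3 of 4 measured, at 11.9 and 19.6 for Alb. These genes mark cells that are not lymphoid, and their part in the differences above was not tested. Of 8 stem cell genes Hlf was called lower (36.9 and 17.6) and Ly6a, which encodes the sorting marker SCA1, higher (7.38 and 16.0). Ly6a was detected in 26 members of each library.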

How the data were processed

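LSK cells of mouse fetal liver were sequenced with 10x 3' v3 chemistry in 2 libraries, 1 per genotype. The authors made the deposited UMI counts per gene and cell with Cell Ranger 6.0.0 on mm10 (GRCm38), per the submitters' processing notes. The annotation release is not given in the sources used here. Counts were read as deposited, and 32158 of 32285 gene IDs were found in the GENCODE annotation, from which positions were taken.

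The filter on cells asked for 1000 or more genes and no more than 20% of UMIs from mitochondrial genes. Scrublet (expected rate 5%, scanpy 1.11.5) marked doublets, which were kept. For each group of cells in a library the UMIs of a gene were added up and given per 1000000 UMIs (CPM). Intervals were exact Poisson, Clopper-Pearson or conditional binomial 95% intervals (scipy 1.17.1, numpy 2.4.6, Python 3.11.15), and differences of shares were given with 95% intervals. They cover counting error only. A group at 0 was set to a floor of 3 UMIs, which makes the ratio a bound. For shares, and as an alternative setting, cells were thinned at random to 8000 UMIs, and the rule was then applied to the thinned counts.

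A gene was measured with at least 50 UMIs (KO against WT, and members against Flt3 cells) or 20 UMIs (Ebf1-only against Ccr9-only), and called past 1.5-fold (KO against WT) or past 2-fold in the same direction in both libraries (the others). Named genes were the 8 highest and 8 lowest with at least 100 UMIs for KO against WT, and the 10 each way by the smaller of the 2 libraries' ratios for the others, without genes of the rule, haemoglobin, mitochondrial and sex-linked genes. Genes of 21 lists, written from general knowledge, were named too. A few of them are not reported here. The members and lists were chosen with earlier results of these data known. With 1 library per genotype no test across libraries was possible. The scripts were tested on simulated data. Alternatives changed the thinning, cell filter, doublets, rule minimums and limits, sex, scaling and gene minimums, one at a time.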

Additional observations from a re-analysis of the deposited data

Results flagged for a closer look

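For 8 genes the KO over WT ratio lay on opposite sides of 0 in the Ebf1-only and the Ccr9-only cells. Neither arm's interval spanned 0, and this pattern is what singled them out. The share of all genes with this pattern is not given, so their number is a description. The difference between the arms was not tested, and each value compares 1 library with another.

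Of the genes lower in KO Ebf1-only and higher in KO Ccr9-only cells, Ctsb, a lysosomal protease, had log2 ratios of -1.84 (30 KO and 176 WT UMIs) and 0.768 (40 and 42 UMIs). Cstb, an inhibitor of such proteases, had -0.987 and 0.923. Fdps, an enzyme of isoprenoid synthesis, had -0.898 and 0.691. Ifitm1, an interferon-induced membrane protein, had -0.63 from 130 and 329 UMIs and 0.7 from 210 and 231 UMIs.

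The other 4 genes went the opposite way. Zcchc7, a zinc finger RNA-binding protein, had 0.88 in Ebf1-only cells and -1.33 in Ccr9-only cells. Coro2a, an actin-binding coronin, had 0.857 and -0.924. Dhx30, an RNA helicase, had 0.773 and -1.41, the latter from 8 KO and 38 WT UMIs. Nsrp1, a splicing regulator, had 0.663 and -1.16.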

How the results depend on the processing

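The share difference of -0.0866 points became -0.991 without thinning. With cells thinned to 8000 UMIs, 159 genes were higher and 95 lower in KO of 3031 measured, 17 (1%) were higher and 5 (0.294%) lower in Ebf1-only cells of 1698 measured, and 24 (0.425%) were higher and 83 (1.47%) lower than in Flt3 cells of 5643 measured. Of these, 21 and 10, 9 and 1, and 14 and 30 were called before thinning too. Without the Klf1 and Elane limits 78 genes were lower than in Flt3 cells, and with the mean of CPM per cell 200 were. With lower gene minimums the counts were 511 higher and 657 lower in KO, 83 and 64 for Ebf1-only cells and 153 and 330 against Flt3 cells, and with higher minimums they were 35 and 42 in KO and 18 and 9 for Ebf1-only cells.

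Thinning reversed S100a4 (-0.119), AC149090.1 (-0.226), Fcgr3 (2.10), Pf4 (0.582) and Cpa3 (1.51) in KO against WT, and Apoe (1.07) between the arms in WT. With at least 2 Il7r UMIs Apoe was 2.72 in WT and 1.88 in KO. Without the Klf1 and Elane limits, hepatocyte genes in KO turned to 0.600 (Serpina1a), 0.169 (Apom), 0.536 (Apoa1), 0.401 (Ambp), 0.171 (Apoa2) and 0.560 (Serpina1b) against Flt3 cells. The cause was not tested.

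Leaving out cells with C1q UMIs and cells with 50 or more hepatocyte UMIs was chosen after seeing the data. The former turned Pf4 to 0.865 and Apoe to 1.72 in WT and 1.96 in KO. The latter turned Serpina6 (0.0837), Apoa1 (0.0789), Fabp1 (0.598), Ambp (0.791) and Serpina1b (0.691) in WT, and Apoa2 (0.0909) and Serpina1b (0.0653) in KO. No paired analysis was possible because WT and KO were 1 library each, from different embryos. No replicate could be left out, and the depth of the KO members limits calls on genes of low count.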

Other observations

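G2/M genes, which act in mitosis, summed to 5234 CPM in WT and 5528 in KO Il7r lymphoid cells against 4167 and 4647 in Flt3 cells without Il7r. Of 27 such genes, 27 in WT and 23 in KO had a log2 ratio above 0, with medians of 0.34 and 0.20, and none was called. S phase genes summed to 2399 and 2653 against 2574 and 2563, with 5 of 26 above 0 in WT and 13 in KO. Mki67, a marker of cycling cells, was at 235 against 205 CPM in WT and 311 against 231 in KO.

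Genes of the fetal lymphoid programme were present in both populations. Hmga2, a chromatin protein of fetal progenitors, was at 622 against 390 CPM in WT and 530 against 394 in KO. Lin28b, an RNA-binding protein of fetal cells, was at 27.1 against 27.3 and 30.9 against 30.9. None of 9 measured genes of this list was called in any of the 3 comparisons. Of the homing genes, Cxcr3, a chemokine receptor of effector lymphocytes, was at 4.25 against 8.92 in WT and 1.60 against 5.86 in KO.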
